A study of Rattus norvegicus with 4 samples.

Results

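Gonadal mesenchyme transcription factors are the DNA-binding proteins that mark the somatic progenitors of the developing gonad. Their messenger RNAs were examined in cultured rat testicular peritubular myoid cells, the contractile cells that wrap the seminiferous tubule. The set held 9 genes: Gata4, Gata6, Wt1, Lhx9, Nr5a1, Nr2f1, Nr2f2, Tcf21 and Tcf4. A probe was taken when the gene name in the scanner files was the symbol of one of these genes or an older symbol of it, which gave 14 of 41012 non-control probes and 9 of the 35672 gene or transcript names in the files. Gata6 had 4 probes, Lhx9 and Nr2f1 had 2 each, and the other 6 genes had 1 each.

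The testosterone group (2 arrays) came from cells given 1e-07 M testosterone in pulses, and the control group (2 arrays) from cells labelled as controls. All cells were isolated from the testes of 40-day-old male rats and kept for 4 days in medium with defined growth factors. The labels name no strain and no vehicle for the controls, and they do not say whether the 2 replicates of a group came from separate animals or cultures, so a p-value here measures only the spread between arrays. The study asked which genes testosterone induces in these cells, and for these factors the arrays also show which of them the cultures express.

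In the embryo, Gata4, Wt1, Lhx9 and Nr5a1 act together in the genital ridge, where they are needed for growth of the early gonad. Nr2f2 (COUP-TFII) and Tcf21 mark interstitial progenitors that later contribute to Leydig cells, fibroblasts and peritubular cells, whereas Wt1 is kept in the adult testis mainly by Sertoli cells and Nr5a1 by Leydig and Sertoli cells. Tcf21 is a basic helix-loop-helix protein that binds E-boxes as a dimer with E proteins such as the product of Tcf4.

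A level is the log2 of a probe's processed signal over the 75th percentile of its array, so that 0 is a signal as bright as that percentile. A probe counted as detected on an array where the scanner software marked its spot as well above background. Differences are testosterone minus control on the log2 scale, with 95% intervals and p-values from limma adjusted over all 25936 tested probes. The adjusted p of each of the 11 tested probes of these factors was 1 in limma. Signals depend on each probe's own brightness, so levels are compared between arrays and not between genes. In these bulk RNA samples, fewer cells of a type and less RNA per cell cannot be told apart.

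Promoters of 6 of the 9 genes matched the RefSeq promoter table of the GRCr8 assembly, while Gata4, Nr2f2 and Lhx9 are named only. Those of Nr5a1 and Tcf21 are shown because they hold letters that other factors in the set, or their partners, are known to bind. Capitals mark matches in either direction to the letters searched. The E-box was searched as CACGTG. The CCAAT box was searched by the letters of its name. The GATA motif was searched as AGATAA. Bases that the annotation places inside the gene were left out of the Nr5a1 window.
Nr5a1, chr3:42896110-42896296, minus strand: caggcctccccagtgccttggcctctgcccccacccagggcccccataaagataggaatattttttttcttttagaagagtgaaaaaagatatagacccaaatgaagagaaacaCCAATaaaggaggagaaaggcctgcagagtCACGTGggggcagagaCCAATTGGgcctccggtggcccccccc
Tcf21, chr1:24520249-24520498, plus strand: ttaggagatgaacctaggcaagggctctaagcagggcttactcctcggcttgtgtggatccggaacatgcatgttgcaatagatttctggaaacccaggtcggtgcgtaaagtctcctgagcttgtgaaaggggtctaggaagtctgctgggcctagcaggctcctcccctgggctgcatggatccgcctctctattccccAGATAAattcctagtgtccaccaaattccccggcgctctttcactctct
The Nr5a1 window held an E-box at -106 and CCAAT boxes at -136, -90 and -87, counted from the start site in the table, and the last pair overlap. The Tcf21 window held a GATA motif at -49. Searched on both strands of the 250 bases upstream, the E-box lay in 2 of the 6 promoters and in 5.59% of all 33469 promoters in the table, and the CCAAT box in 3 of 6 and 34%. AGATAA lay in 1 of 6 promoters and in 10.3% of all. The nuclear receptor core AAGGTCA lay in 0 of 6 (3.99% of all), and the androgen receptor core AGAACA in 0 of 6 (17.5% of all). These letters describe the windows only and say nothing of binding in these cells.

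For 8 of the 9 genes at least 1 probe was detected on all 4 arrays, and Wt1, with 1 probe, was the exception. For Gata6 this held for 1 probe alone. By probe, 10 of 14 were detected on all 4 arrays, 1 on 3 arrays and 3 on none. Over all 41012 probes, 59.8% were detected on all 4 arrays and 29.0% on none. Of the 8 genes that could be tested, which leaves out Wt1, 0 differed between testosterone and control cells in the test. Of the 11 probes tested, 6 differences were positive (47.7% of all tested probes) and 5 negative (52.3%). Of these 11, 0 were called at an adjusted p under 0.05 in limma, as were 0% of all tested probes in either direction. The plot of levels by array shows the 14 probes.

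**Figure D1:**
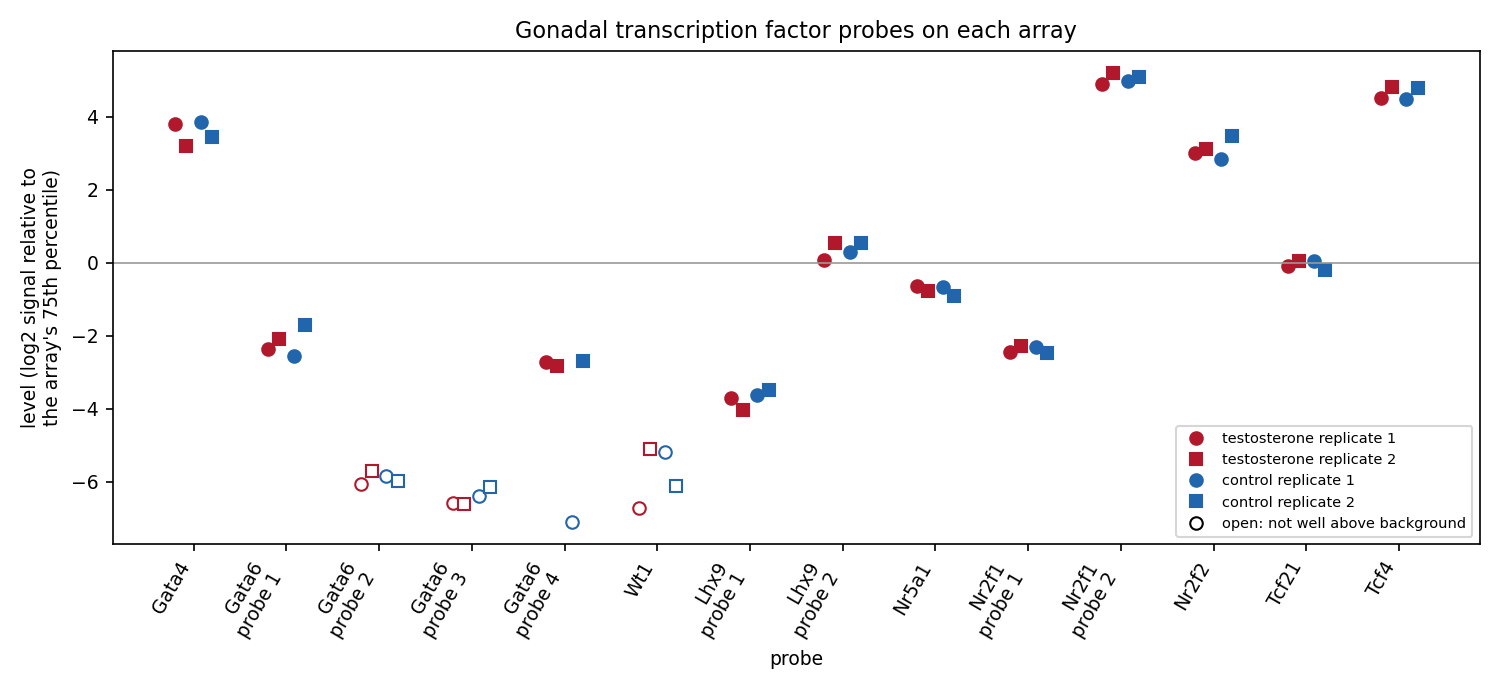
Level of each probe (log2 signal relative to the array's 75th percentile) on the testosterone arrays (red) and the control arrays (blue), circles for replicate 1 and squares for replicate 2, with open symbols where the spot was not well above background. Gata6 probes 2 and 3 and the Wt1 probe are open on all 4 arrays, and Gata6 probe 4 is open on control replicate 1 alone.

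Gata4 encodes a zinc-finger factor of the somatic gonad that regulates Nr5a1 and steroidogenic genes. Its probe (A_42_P486144, chromosome 15, 42473004 to 42473063, rn4) stood at 3.80 and 3.19 on the testosterone arrays, against 3.86 and 3.45 on the control arrays. The groups overlapped, and both arrays numbered 1 lay above both numbered 2. The processed signals were 6429 and 3217 with testosterone and 6065 and 4349 in controls. The difference was -0.16 (-0.97 to 0.65), and it became positive, at 0.14 and 0.04, when testosterone replicate 2 or control replicate 1 was left out.

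Gata6, a paralog of Gata4 also present in somatic cells of the testis, was measured by 4 probes that disagreed on detection. Probe 1 (A_44_P445300, chromosome 18, 2512492 to 2512551, rn4) was detected on every array, at -2.35 and -2.10 with testosterone and -2.55 and -1.71 in controls. Its groups overlapped, and the difference was -0.09 (-1.02 to 0.83). The other 3 probes lay 21635 to 22338 bases farther along the strand. Probes 2 and 3 had processed signals of 6.90 and 6.70, and of 4.80 and 3.60, on the testosterone arrays. On the control arrays they had 7.30 and 6.30, and 5.0 and 5.70. Neither was well above background on any array, so neither was tested.

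Probe 4 of Gata6 (A_44_P868714, chromosome 18, 2534830 to 2534889, rn4) showed the widest gap of the set, and it rested on 1 spot. Its processed signal was 70.2 and 49.6 with testosterone, against 3.10 and 62.0 in controls. Control replicate 2 lay with the testosterone arrays, and control replicate 1 alone was low and undetected. The probe entered the test through the testosterone group, and its difference was 2.11 (-1.85 to 6.06; unadjusted p = 0.221 in limma). With normexp background correction it was 0.39 after quantile normalization and 0.41 after scaling to the 75th percentile. Without control replicate 1 the difference was -0.09. Without control replicate 2 it was 4.31, with an adjusted p of 0.0379 in limma, a fit in which the single control array is assumed to vary like the testosterone arrays.

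That spot lay among dropped spots of control replicate 1. On that array 103 probes printed once stood at least 3 log2 units below the other 3 arrays, where they were well above background, all 103 of them in array columns 57 to 85, against 1 and 0 such probes on the testosterone arrays and 0 on control replicate 2. The Gata6 spot was 1 of the 103, and 44 of these spots lay within 10 rows and 5 columns of it. Of the 14 probes of these factors, 5 lay in columns 57 to 85, which hold 33.9% of the probes printed once: Gata6 probes 2, 3 and 4, Wt1 and Nr2f1 probe 1. With dropped spots taken as missing, the Gata6 probe 4 difference was -0.09, a value for which control replicate 1 did not enter.

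Wt1 encodes a zinc-finger factor needed for the early gonad and kept in Sertoli cells. Its probe (A_44_P176466, chromosome 3, 90575931 to 90575990, rn4) gave processed signals of 4.40 and 10.3 with testosterone and 11.6 and 5.80 in controls. No array had it well above background, so no difference was tested, and such low signals give only a rough level. By the scanner's milder flag, for a signal that is positive and significant, the Wt1 probe and Gata6 probes 2 and 3 passed on all 4 arrays, as 71.7% of all probes did. Beside it, 9 of the 11 Sertoli cell marker genes with a probe were detected on all 4 arrays, where 59.8% of all probes were, and 0 on none. Amh was among the 9, at -4.43 and -4.15 with testosterone and -4.34 and -4.35 in controls. The processed signals of Amh were only 21.4 and 19.9 with testosterone and 20.7 and 19.4 in controls. Fshr was detected on 1 array and Cst12 on 2. Sox9, a Sertoli cell factor, was detected on 1 array only.

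Lhx9 encodes a LIM homeobox factor of the genital ridge. Its probe 2 (A_44_P593883, chromosome 13, 52140190 to 52140249, rn4) stood at 0.07 and 0.54 with testosterone and 0.28 and 0.53 in controls. The groups overlapped, and the difference was -0.10 (-0.78 to 0.58). Probe 1 (A_44_P137322, chromosome 13, 52151490 to 52151549), 11300 bases upstream of probe 2, stood at -3.69 and -4.04 with testosterone and -3.61 and -3.48 in controls. Both testosterone arrays lay below both control arrays in level here. The processed signals were low, at 35.8 and 21.5 with testosterone and 34.2 and 35.7 in controls. The difference was -0.32 (-0.90 to 0.26; unadjusted p = 0.211 in limma), and it did not pass the test. With normexp it was -0.15 after quantile normalization and -0.12 after scaling to the 75th percentile. This was the 1 tested probe of 11 with testosterone below control on every array, where 8.98% of all tested probes were below, and 0 of 11 were above, where 6.16% of all were.

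Nr5a1 (steroidogenic factor 1) encodes an orphan nuclear receptor that drives steroidogenic gene expression. Its probe (A_43_P15478, chromosome 3, 18499578 to 18499637, rn4) stood at -0.63 and -0.78 with testosterone and -0.66 and -0.91 in controls. The processed signals were 299 and 206 with testosterone, against 265 and 212 in controls, so the probe was detected throughout. The groups overlapped, and the difference was 0.08 (-0.47 to 0.63). Of 8 Leydig cell markers in the same RNA, 6 were detected on all 4 arrays, where 59.8% of all probes were. Lhcgr, the luteinizing hormone receptor, was detected on none. Star, which moves cholesterol into mitochondria, stood at 5.62 and 6.31 with testosterone and 5.53 and 6.04 in controls. Insl3, a Leydig cell hormone, stood at 5.44 and 5.34 with testosterone and 5.74 and 5.25 in controls. Other genes of the list had low levels. Cyp11a1 stood at -2.36 and -3.33 with testosterone and -2.20 and -3.10 in controls. Cyp17a1 stood at -3.03 and -3.73 with testosterone and -2.66 and -3.96 in controls, and Hsd17b3 was detected on 2 arrays only. The part of Leydig cells in the Nr5a1 signal was not tested. A probe name Sf1 in the files stands for splicing factor 1 and was not taken for Nr5a1.

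Nr2f1 and Nr2f2 encode the COUP-TF orphan nuclear receptors, of which Nr2f2 is known from Leydig progenitors and other stromal cells. Nr2f2 (A_44_P421333, chromosome 1, 125280995 to 125281054, rn4) stood at 3.0 and 3.12 with testosterone and 2.85 and 3.46 in controls. The control arrays lay on either side of the testosterone arrays, and the difference was -0.09 (-0.82 to 0.64). Nr2f1 probe 2 (A_43_P14310, chromosome 2, 5765431 to 5765490) stood at 4.90 and 5.19 with testosterone and 4.99 and 5.07 in controls, with signals between 12923 and 13841 on the 4 arrays. The difference was 0.02 (-0.53 to 0.57), which as a fold is 1.01 (0.692 to 1.48). Nr2f1 probe 1 (A_44_P541011, chromosome 2, 5774480 to 5774539), 9049 bases upstream of probe 2, was also detected on all 4 arrays. It stood at -2.45 and -2.27 with testosterone and -2.29 and -2.46 in controls, with a difference of 0.02 (-0.51 to 0.55). Both probes of Nr2f1 thus had overlapping groups.

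Tcf21 (A_44_P224614, chromosome 1, 23211369 to 23211428, rn4) stood at -0.08 and 0.04 with testosterone and 0.06 and -0.20 in controls. All 4 arrays lay close to the 75th percentile, and the difference was 0.05 (-0.49 to 0.59). Tcf4, the E protein, was read by a probe (A_42_P524370, chromosome 18, 66359926 to 66359984) at 4.52 and 4.80 with testosterone and 4.48 and 4.78 in controls. Its groups overlapped, the arrays numbered 2 being the higher in each group, and the difference was 0.03 (-0.57 to 0.63). As a fold this was 1.02 (0.673 to 1.55).

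**Figure D2:**
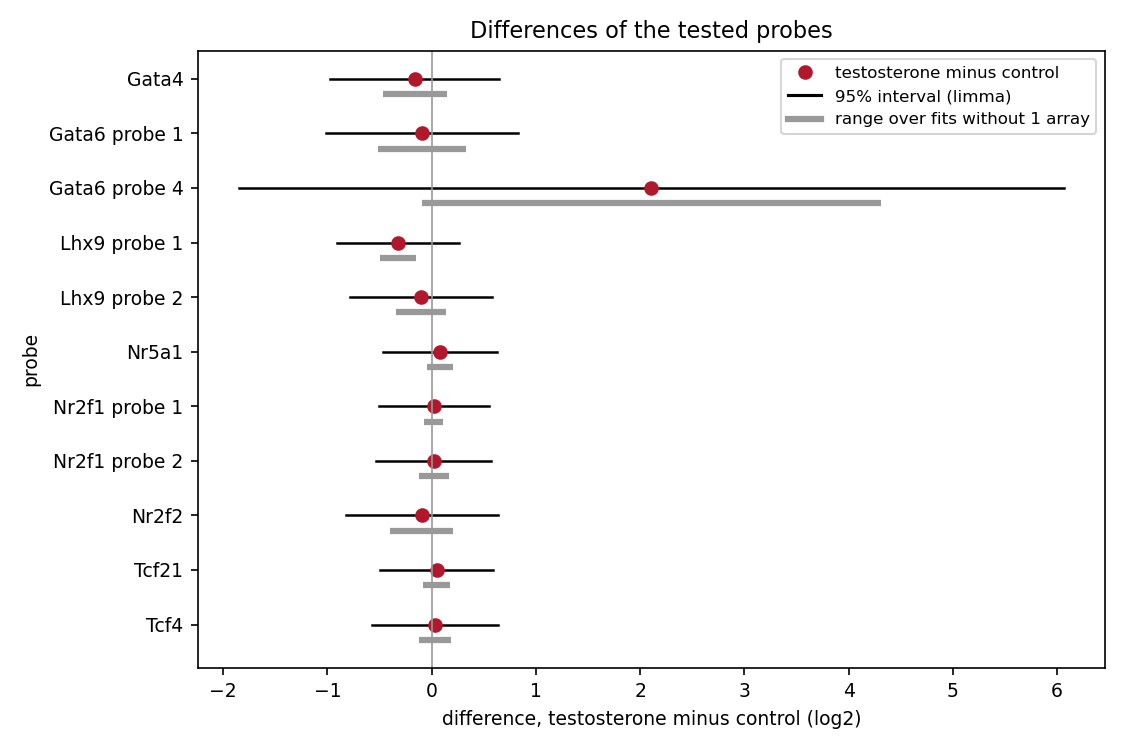
Testosterone minus control difference (log2) of the 11 tested probes, with points for the limma estimate, thin lines for its 95% interval and thick grey bars for the range when each array in turn was left out. Every interval crosses 0, Gata6 probe 4 spans -1.85 to 6.06, and only Lhx9 probe 1 keeps its sign in all of the 4 leave-one-out fits. Any probe whose groups do not overlap must do so, and this adds no further evidence of a difference.

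Over all 25936 tested probes limma called 0 higher and 0 lower with testosterone, and 209 (0.806%) had an unadjusted p under 0.05. The interval reached 0.64 either side of the estimate in the median probe, so a probe with that interval would not resolve a smaller change. At least 2-fold apart with groups that did not overlap were 143 probes (0.551%) higher and 38 (0.147%) lower with testosterone, and 0 of the 11 probes of these factors were among them. The median difference of the 11 probes was 0.02, against -0.01 over all tested probes. Without Gata6 probe 4, the other 10 differences ran between -0.32 and 0.08. With normexp and quantile normalization the 2-fold counts were 25 higher and 0 lower. Without control replicate 2, which leaves the array with the dropped spots as the only control, limma called 67 probes higher, Gata6 probe 4 among them, and 728 were at least 2-fold higher and 120 lower. Without testosterone replicate 1 these were 716 and 130, without testosterone replicate 2 they were 259 and 323, and without control replicate 1 they were 125 and 121. Per array 63.5% to 68.2% of non-control spots were detected, and the header of control replicate 1 alone asked for evaluation.

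The arrays also separated by replicate number. Of the 10 probes of these factors detected on all 4 arrays, 5 had both arrays numbered 2 above both numbered 1, against 36.6% of 24500 such probes in all, and 2 had them below, against 27.8%. Gata4 was lower on the arrays numbered 2 by a difference of -0.61 in testosterone cells and -0.41 in control cells. For Gata6 probe 1 the same difference was 0.26 in testosterone cells and 0.84 in control cells, and for Lhx9 probe 2 it was 0.48 and 0.25. These exceed the testosterone difference of the same probes. Some germ cell markers moved with the number as well: Tnp1, a spermatid nuclear protein, stood at -3.42 and 1.59 with testosterone and -2.80 and 1.59 in controls. The germ cell list, 7 of 8 genes with a probe and Acrv1 detected on no array, had mean levels of -4.69 and -2.46 with testosterone and -5.19 and -2.59 in controls. The control replicate 1 mean includes a dropped spot of Ddx4, at -7.59. With testosterone Ddx4 went the other way, at -2.56 and -3.83, and the dropped spot leaves its direction in controls unknown. Over the other 6 genes the means were -5.05 and -2.23 with testosterone and -4.79 and -2.36 in controls. Markers of other cells differed by number too. Msln, a mesothelial gene, stood at -4.91 and -0.62 with testosterone and -4.53 and -0.60 in controls. Lum, a fibroblast gene, stood at 0.24 and 2.17 with testosterone and 0.09 and 1.62 in controls. Both genes were higher on the arrays numbered 2 in each group, as were Kdr and Tagln, and Cldn11 and Cyp11a1 were lower. Kdr, an endothelial receptor, stood at -2.11 and -0.45 with testosterone and -1.99 and 0.19 in controls. Cldn11, a Sertoli cell junction gene, stood at 0.40 and -0.66 with testosterone and 0.59 and -0.67 in controls. The part of these cells in the levels of the factors was not tested.

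Taken within a number, the testosterone minus control differences of Gata4 were -0.06 for number 1 and -0.27 for number 2. Those of Nr2f2 were 0.15 and -0.34, and those of Gata6 probe 1 were 0.20 and -0.39, so neither probe kept its sign. Nr5a1 (0.03 and 0.13) and Tcf4 (0.04 and 0.02) were positive in both, and Lhx9 probe 1 (-0.08 and -0.56) was negative in both. For Lhx9 probe 1 this follows from its groups not overlapping.

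Probes with no gene symbol lay near several of these genes on the same strand, and 7 of them within 5000 bases were detected on all 4 arrays. They were looked for after the values of the named probes were seen, and the files do not tie 6 of them to a gene. An unannotated probe 1244 bases downstream of the Wt1 probe (chromosome 3, 90577175 to 90577234, rn4) stood at -0.07 and 0.12 with testosterone and -0.04 and -0.05 in controls, while the named Wt1 probe was not detected. Whether it reads a Wt1 transcript was not tested. The probe that the files describe as the gene for Ad4BP, an older name of Nr5a1, lay 1408 bases downstream of the Nr5a1 probe and stood at -5.29 and -4.71 with testosterone and -4.66 and -4.97 in controls. Its signals, 11.8 and 13.5 with testosterone and 16.6 and 12.7 in controls, were near the limit of detection.

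Near Nr2f2, a probe 2298 bases downstream stood at 3.26 and 3.41 with testosterone and 3.32 and 3.56 in controls. Near Nr2f1 probe 2, a probe at -290 bases (upstream) stood at 2.80 and 3.01 with testosterone and 2.78 and 2.86 in controls. The nearest of 3 probes downstream of Tcf4, at 1627 bases, stood at 5.52 and 5.81 with testosterone and 5.49 and 5.78 in controls. The groups of these 3 probes overlapped, as those of the named probes beside them did. The probe 2176 bases downstream of Tcf4 stood at -2.52 and -2.70 with testosterone and -2.64 and -2.67 in controls, and that 3917 bases downstream at 1.80 and 1.74 with testosterone and 1.63 and 1.90 in controls.

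**Figure D3:**
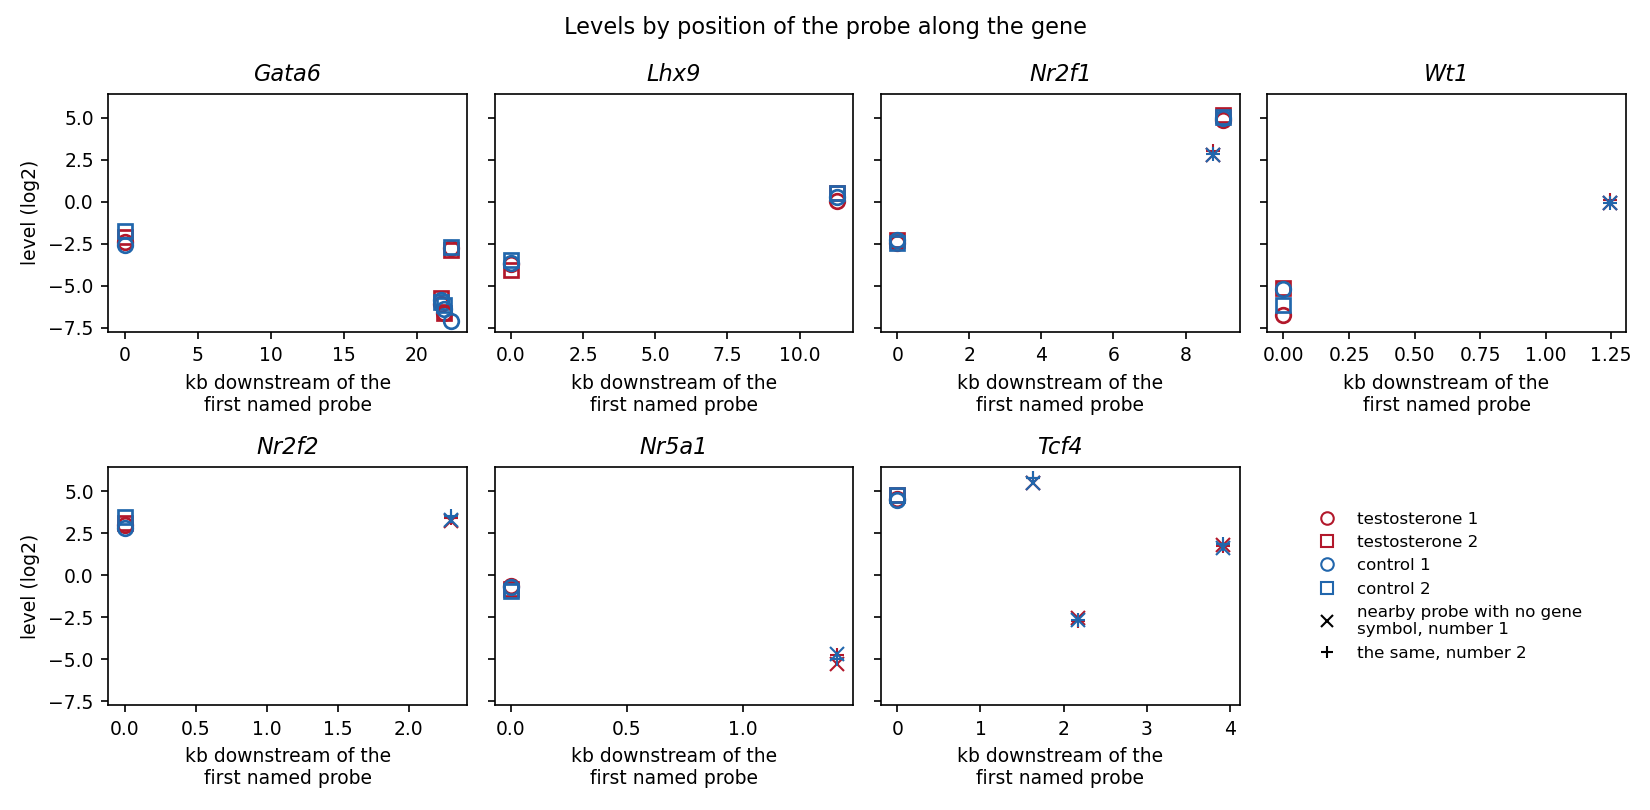
Level (log2) of each named probe (open circles for replicate 1, squares for replicate 2) and of nearby probes with no gene symbol (crosses and plus signs) against distance in kilobases downstream of the gene's most upstream named probe, with testosterone in red and control in blue. Gata6 was detected on 4 arrays by probe 1, on none by probes 2 and 3 and on 3 by probe 4, and the probe 1244 bases past the Wt1 probe lies near 0 on all 4 arrays.

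Related transcription factors were read from 4 lists, and 0 of their tested members were called in limma. Of the GATA family members and their FOG cofactors, 4 of 6 had a probe, 2 were detected on all 4 arrays, and both of those had positive differences. Gata2, a factor of blood and other lineages, differed by 0.26 and Zfpm2, which encodes the Gata4 cofactor FOG2, by 0.06, and their groups overlapped. Gata3 was detected on no array. Among E proteins and mesenchymal helix-loop-helix factors, 8 of 10 had a probe and 6 were detected on all 4 arrays, with 3 positive and 3 negative differences (median -0.01). Tcf12, another E protein, differed by -0.18, Twist2 by 0.14, Tcf15 by -0.11 and Twist1 by 0.05, and Hand2 was detected on no array.

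Of the early gonad and nephric ridge factors, 12 of 13 had a probe, 6 were detected on all 4 arrays and Lhx2, Six4, Hoxa11 and Tbx18 on none. Among the 6 tested genes 2 had positive and 4 negative differences, with a median of -0.06. Pax2, a factor of the nephric duct, stood at -3.37 and -3.25 with testosterone and -3.88 and -3.71 in controls, with a difference of 0.49 that did not pass the test. Its processed signals were low, at 44.7 and 37.3 with testosterone and 28.4 and 30.4 in controls. The Pax2 spot lay in array column 68, among the columns with dropped spots on control replicate 1, though it was not counted as dropped. Osr1, a factor of the intermediate mesoderm, stood at 0.77 and 0.88 with testosterone and 1.08 and 1.25 in controls, with a difference of -0.34. Of the 6 tested genes, 1 had both testosterone arrays above both control arrays and 2 had them below, Pax2 and Osr1 among these, where 6.16% of all tested probes were above and 8.98% below.

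Of the sex determination and interstitial progenitor factors, 14 of 15 had a probe and 9 were detected on all 4 arrays, with 5 positive and 4 negative differences (median 0.02). Sox8, Dmrt1, Foxl2 and Nr5a2 were detected on no array. Nr0b1, which encodes DAX1, a repressor of Nr5a1, stood at -4.49 and -5.37 with testosterone and -3.26 and -5.23 in controls. Its spread between arrays exceeded the difference of -0.69. Hes1 differed by -0.25 and Gli1 by -0.15.

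**Figure D4:**
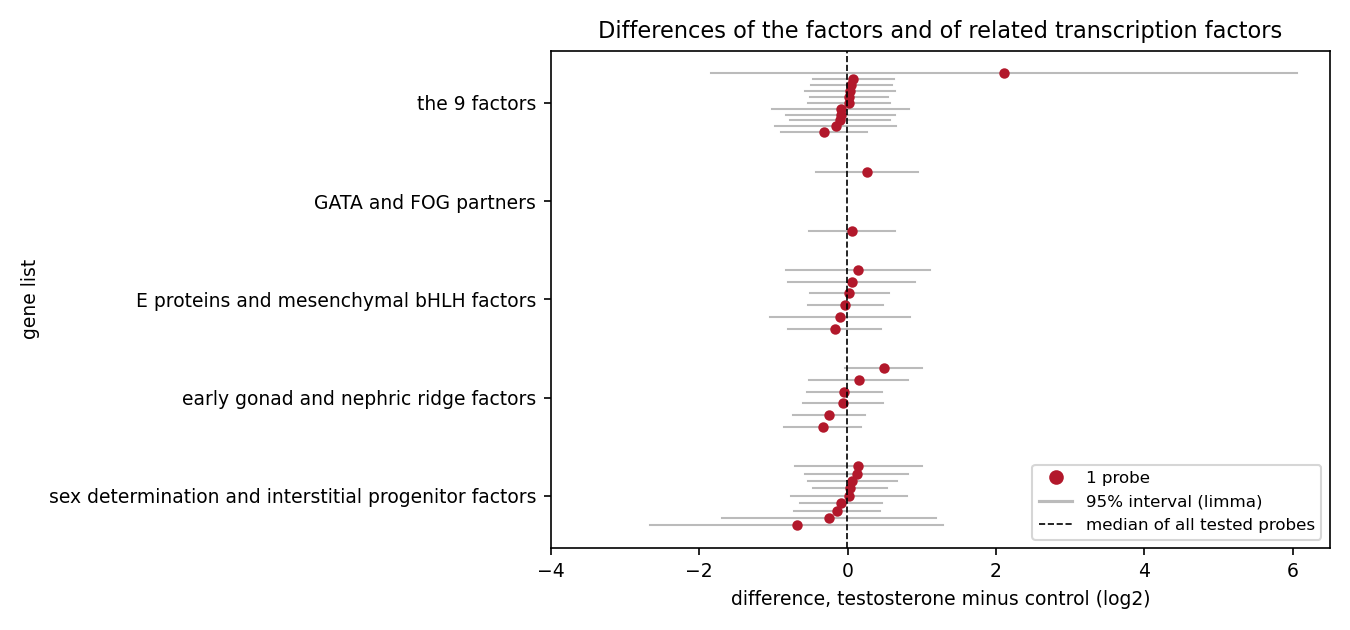
Testosterone minus control difference (log2) of the tested probes of the factors and of the 4 related lists, 1 point per probe, with grey lines for 95% intervals from limma and a dashed line at the median of all tested probes. Most points lie near 0, with Gata6 probe 4 at 2.11, Nr0b1 at -0.69 and Pax2 at 0.49 as the farthest.

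The cell label was set against marker genes. Of 10 smooth muscle genes with a probe, 8 were detected on all 4 arrays, where 59.8% of all probes were. Lmod1 was detected on 3 and Cnn1 on none, and no probe bore the name Acta2 or Myh11. Actg2 differed by 0.58, Myl9 by -0.28, Des by 0.14 and Tagln by -0.12. The processed signals of Tagln were low, at 18.7 and 49.5 with testosterone and 18.9 and 59.2 in controls. Those of Myl9 were 23658 and 20551 with testosterone and 26487 and 27523 in controls. Actg2 stood at 1.18 and 1.39 with testosterone and 0.17 and 1.25 in controls, so its difference rested on control replicate 1. Its spot lay in array column 67, among the columns with dropped spots on that array, though it was not counted as dropped. Markers of other cells were also present: all 6 macrophage and leukocyte genes with a probe were detected on all 4 arrays. That list's mean levels were 2.06 and 1.93 with testosterone and 2.17 and 2.02 in controls. Tyrobp differed by -0.21, Itgam by -0.16, Cd163 by -0.11 and Cd68 by -0.10. Of the Leydig genes, Cyp11a1 differed by -0.19, Hsd3b1 by -0.19, Star by 0.18 and Scarb1 by -0.15, and of the Sertoli genes Rhox5 by -0.22, Inhbb by 0.14, Cldn11 by -0.09 and Inha by -0.09.

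Fibroblast markers were detected on all 4 arrays for 5 of 6 genes, Thy1 being detected on none. Of all probes, 59.8% were detected on all 4 arrays. Pdgfra, a receptor of stromal progenitors, stood at 6.60 and 6.60 with testosterone and 6.74 and 6.74 in controls. Col1a1 differed by 0.54, Lum by 0.34, Pdgfra by -0.14 and Dcn by -0.06. The Col1a1 groups overlapped, at 6.90 and 7.42 with testosterone and 6.13 and 7.12 in controls, with control replicate 1 the lowest. Of mesothelial genes, whose tissue also expresses Wt1, 3 of the 4 with a probe were detected on all 4 arrays. Krt19 differed by 0.63, Msln by -0.20 and Krt8 by -0.11. The Krt19 groups overlapped, at -4.25 and -2.82 with testosterone and -4.37 and -3.95 in controls, with testosterone replicate 2 the highest. Of 7 endothelial genes 4 were detected on all 4 arrays and Tek on none, with Kdr at -0.38, Vwf at -0.36, Cdh5 at -0.14 and Esam at -0.10. None of these marker genes was called in limma. Their part in the levels of the factors was not tested.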

How the data were processed

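Total RNA was primed with oligo-dT, labelled with Cy3 and hybridised to 4 1-colour Agilent 4x44k rat arrays, per the labels' protocols. Per the file headers, the deposited scanner files came from Feature Extraction 11.5.1.1 (10.5 per the submitters' processing notes) and give each spot's processed signal as a linear intensity, with positions on rn4. The authors' deposited series table holds log2 values, each column equal to the log2 processed signal minus 8.79 and 8.38 (testosterone) or 8.63 and 8.55 (control), with column medians of -3.61 and -3.34 (testosterone) or -3.62 and -3.45 (control). That table is thus neither centred by gene nor turned in sign.

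From each log2 processed signal the array's own 75th percentile (non-control spots) was subtracted. Outlier spots were left out, saturated spots kept and spots of one probe averaged. A probe was tested if 1 group or both had it well above background on each array. The test was limma 3.58.1 under R 4.3.3, with lmFit, eBayes, no covariate and 2-sided p-values adjusted by Benjamini-Hochberg over all tested probes. The fit was tested on simulated data. All arrays shared 1 slide and 1 scan, so no batch could be examined by either. Precision is limited by the number of arrays.

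The members, gene lists and tests were chosen with earlier results of these data known. All probes of the members are named. From each list, up to 4 genes detected on all 4 arrays with the largest differences are named, by each gene's brightest probe, with the genes detected on no array (some genes this takes are not reported here); Sox9, Amh, Insl3, Lmod1 and Tnp1 were named after their values were seen. Same-numbered arrays deviated together over 25936 probes (r = 0.474, 2 pairs), but the labels tie no number to a culture, so no pairing was used. Promoters and older symbols came from RefSeq tables of GRCr8, whose coordinates are given for promoters only. Alternatives covered background correction, scaling, filters, the authors' table, a replicate block, the columns with dropped spots and leaving out each array.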

Additional observations from a re-analysis of the deposited data

How the results depend on the processing

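No probe was called higher or lower in limma under any alternative except 67 called higher without control replicate 2 (range 0 to 67 over the leave-one-out fits, and 0 to 0 for lower), where the array with the dropped spots is the only control. With the replicate block, 0 probes were called and 741 had an unadjusted p under 0.05, against 209 without it. The counts at least 2-fold apart, 143 higher and 38 lower, became 25 and 0 with normexp and quantile normalization and 22 and 0 with normexp and the 75th percentile. They were 611 and 286 with no detection filter, 36 and 4 for probes detected on all 4 arrays, 24 and 20 without array columns 57 to 85, and 334 and 131 at 1.5-fold. Leaving out 1 array gave 125 to 728 higher and 120 to 323 lower. The cause was not tested, apart from the smaller or larger number of probes or arrays that each setting itself brings.

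Small differences changed sign with the setting. With normexp and quantile normalization Nr2f1 probe 2 was at -0.040, Tcf21 at -0.035 and Nr5a1 at -0.014, and with normexp and the 75th percentile at -0.046, -0.032 and -0.0034. In the same order of settings Gata6 probe 4, at 2.11 in the report, was at 0.39 and 0.41, and Lhx9 probe 1, at -0.32, was at -0.15 and -0.12. With median scaling Nr2f1 probes 2 and 1 were at -0.047 and -0.046, Tcf21 at -0.017 and Tcf4 at -0.034. Gata6 probe 4 was at -0.094 with dropped spots taken as missing, a setting added after seeing the data. Over the leave-one-out fits the differences ran from -0.47 to 0.14 for Gata4, -0.52 to 0.33 for Gata6 probe 1, -0.094 to 4.31 for Gata6 probe 4, -0.40 to 0.21 for Nr2f2 and -0.12 to 0.16 for Nr2f1 probe 2. They ran from -0.070 to 0.11 for Nr2f1 probe 1, -0.082 to 0.18 for Tcf21, -0.048 to 0.20 for Nr5a1, -0.49 to -0.15 for Lhx9 probe 1, -0.34 to 0.14 for Lhx9 probe 2 and -0.12 to 0.18 for Tcf4. With the scanner's milder flag for a positive and significant signal, 13 of the 14 probes were detected on all 4 arrays, Wt1 and Gata6 probes 2 and 3 added, against 71.7% of all probes. Low signal over background limits Wt1, Gata6 probes 2 and 3 and Lhx9 probe 1, and 1 dropped spot limits Gata6 probe 4.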
